A study of Mus musculus with 6 samples.

Results

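The nuclear genes of respiratory complexes II to V encode the enzymes that carry electrons from succinate and ubiquinol to oxygen and use the resulting proton gradient to make ATP. Succinate dehydrogenase (complex II) and cytochrome bc1 (complex III) feed cytochrome c, cytochrome c oxidase (complex IV) reduces oxygen, and ATP synthase (complex V) makes ATP. The heart depends on this chain for contraction, and cytochrome c also triggers caspase activation when it leaves the mitochondrion. Genes were taken by symbol: Sdha to Sdhd, Cyc1, Cycs, symbols beginning Uqcr or Atp5, and Cox followed by 4, 5, 6, 7 or 8. The rule found 48 genes among 22815 genes with a symbol, namely 4 of complex II, 9 of complex III, 1 cytochrome c gene, 17 of complex IV and 17 of complex V.

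Expression was measured on 1-colour Agilent arrays in the hearts of 6 male C57BL6 mice aged 10 weeks, 1 array per mouse. After 16 h without food every mouse received 20 mg/kg lipopolysaccharide (LPS), bacterial endotoxin, into the peritoneum. The groups were 3 mice given rhTM, recombinant human thrombomodulin, the thrombin-binding protein of endothelium in soluble form, and 3 mice given saline, both at 3 and 24 h, and hearts were taken at 30 h. No heart without LPS or from a fed mouse was analysed here, so each value below sets rhTM against saline after fasting and LPS, a comparison addressing how rhTM alters the heart in endotoxemia.

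Levels are given in log2 units above or below the 75th percentile of the array's signals. A change or difference is the rhTM mean minus the saline mean on that scale, ± its SE from limma. A gene was called where limma's adjusted p over all 14701 genes tested was under 0.05. The p-values measure the spread between arrays, 1 per mouse. Of 59305 spots per array, between 54.8% and 62.8% passed the scanner's test of being well above background, with 0 saturated. Saline 1 and 2 were on slide 1, while saline 3 and all rhTM arrays were on slide 2. The slides were scanned on different dates, so the spread of the saline mice also holds any difference of slide or scan. Each change was therefore also taken against saline 3 alone. Saline 3 and rhTM 3 stood apart from the other mice of their groups: the mean of 3 neutrophil markers was -0.03, -1.72 and 5.83 in rhTM 1, 2 and 3 and 3.52, 4.56 and 7.59 in saline 1, 2 and 3. All 8 cardiomyocyte markers (Myh6, Tnnt2, Tnni3, Actc1, Ryr2, Myl2, Pln and Mb) were well above background on every array.

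The upstream sequences of the 3 genes that were called, and of the other genes that hold the motif of nuclear respiratory factor 1 (NRF-1), a regulator of respiratory genes, show which members share these letters. They are the 250 bases before the gene start in RefSeq, build GRCm38.p6, written 5′ to 3′ on the gene's strand. Capitals mark the NRF-1 motif GCGCATGCG, the ETS motif CCGGAAG bound by GABP, the GC box GGGCGG bound by Sp1 and the motif AAGGTCA of the estrogen-related receptors, on either strand. The NRF-1 motif overlaps its own match on the other strand where the full palindrome of 10 letters is present.
Sdhd, chr9:50603850-50604099, minus strand: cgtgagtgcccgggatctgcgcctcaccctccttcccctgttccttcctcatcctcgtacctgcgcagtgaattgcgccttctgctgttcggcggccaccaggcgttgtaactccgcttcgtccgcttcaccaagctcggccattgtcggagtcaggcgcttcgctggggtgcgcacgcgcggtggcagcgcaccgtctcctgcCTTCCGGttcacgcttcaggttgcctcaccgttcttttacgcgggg
Cycs, chr6:50566570-50566819, minus strand: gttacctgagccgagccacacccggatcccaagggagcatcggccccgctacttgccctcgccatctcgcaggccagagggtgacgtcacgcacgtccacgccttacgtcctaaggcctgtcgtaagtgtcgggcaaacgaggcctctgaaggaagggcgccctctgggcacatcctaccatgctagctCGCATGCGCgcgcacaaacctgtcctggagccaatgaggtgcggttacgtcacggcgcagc
Cox7b2, chr5:71548206-71548455, minus strand: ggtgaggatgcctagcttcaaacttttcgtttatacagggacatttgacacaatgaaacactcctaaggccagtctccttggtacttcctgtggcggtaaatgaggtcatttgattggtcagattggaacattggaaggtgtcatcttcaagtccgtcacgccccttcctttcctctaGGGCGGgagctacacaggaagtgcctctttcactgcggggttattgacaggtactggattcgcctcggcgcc
Atp5g2, chr15:102671048-102671297, minus strand: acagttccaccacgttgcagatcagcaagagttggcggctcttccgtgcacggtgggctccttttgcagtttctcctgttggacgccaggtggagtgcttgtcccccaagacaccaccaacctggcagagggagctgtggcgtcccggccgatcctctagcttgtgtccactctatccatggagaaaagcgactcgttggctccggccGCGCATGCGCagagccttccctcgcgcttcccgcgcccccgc
Atp5k, chr5:108434400-108434649, minus strand: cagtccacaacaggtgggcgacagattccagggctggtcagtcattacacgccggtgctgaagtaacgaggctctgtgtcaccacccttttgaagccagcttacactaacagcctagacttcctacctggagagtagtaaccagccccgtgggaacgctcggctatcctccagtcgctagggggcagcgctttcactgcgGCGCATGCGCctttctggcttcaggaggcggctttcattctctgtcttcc
Atp5l, chr9:44920743-44920992, minus strand: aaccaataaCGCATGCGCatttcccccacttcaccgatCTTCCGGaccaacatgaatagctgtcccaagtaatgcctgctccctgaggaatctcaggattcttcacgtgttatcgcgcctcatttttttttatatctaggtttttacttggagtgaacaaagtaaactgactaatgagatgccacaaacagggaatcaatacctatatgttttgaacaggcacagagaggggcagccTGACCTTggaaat
Cox6a1, chr5:115348959-115349208, minus strand: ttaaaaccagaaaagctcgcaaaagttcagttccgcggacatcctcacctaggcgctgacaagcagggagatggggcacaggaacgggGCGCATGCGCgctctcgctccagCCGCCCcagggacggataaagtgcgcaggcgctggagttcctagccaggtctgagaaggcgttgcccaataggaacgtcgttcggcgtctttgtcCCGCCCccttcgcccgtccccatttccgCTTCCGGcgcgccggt
In all, 39 promoter windows of 36 of the 48 genes were in the RefSeq table. The NRF-1 motif was in 5 of the 39 windows (12.8%), against 1.45% of all 32851 windows of the same length. The full palindrome was in 3 (7.69%), against 0.782%. Of the called genes Cycs held the shorter motif and not the palindrome, Sdhd held the ETS motif and Cox7b2 a GC box. Over the windows the ETS motif was in 23.1%, against 6.91%. The GC box was in 30.8%, against 32.7%. The motif AAGGTCA was in 5.13%, against 4.08%, and the YY1 motif AAGATGGCG in 1 window (2.56%), against 0.606%. The NRF-1 and YY1 motifs were shortened after their counts were seen, and the shares were not tested. Such a match describes letters and not binding.

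As a group the genes lay higher in rhTM hearts, but most changes did not pass the test. Of the 48 genes, 47 had a probe well above background on every array and were tested. The exception was Cox8c, a testis form of subunit 8, not detected above background on any of the 6 arrays. The group mean was higher with rhTM in 45 of the 47 (95.7%), against 50.8% of all genes tested, and the median change was 0.53, against 0.01. The 3 genes called were all higher, Cycs, Sdhd and Cox7b2. They made up 6.38% of the 47, against 2.75% of all genes tested that were called higher and 5.17% called in either direction. No gene of the complexes was called lower, against 2.41% of all genes. At unadjusted p under 0.05 limma gave 21 of the 47 higher and 0 lower. Of all genes tested it gave 2215 higher and 2296 lower, 30.7% in either direction. When same-numbered mice formed a block, Cox7b2 was the 1 gene called, against 4.07% of all genes in that fit, 2.43% higher and 1.65% lower. Quantile normalisation left a median change of 0.27, a higher mean in 36 of the 47 and 1 call. At unadjusted p under 0.05 limma then gave 7 of the 47 higher and 0 lower. Of all genes tested it gave 1873 higher and 2511 lower.

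**Figure D1:**
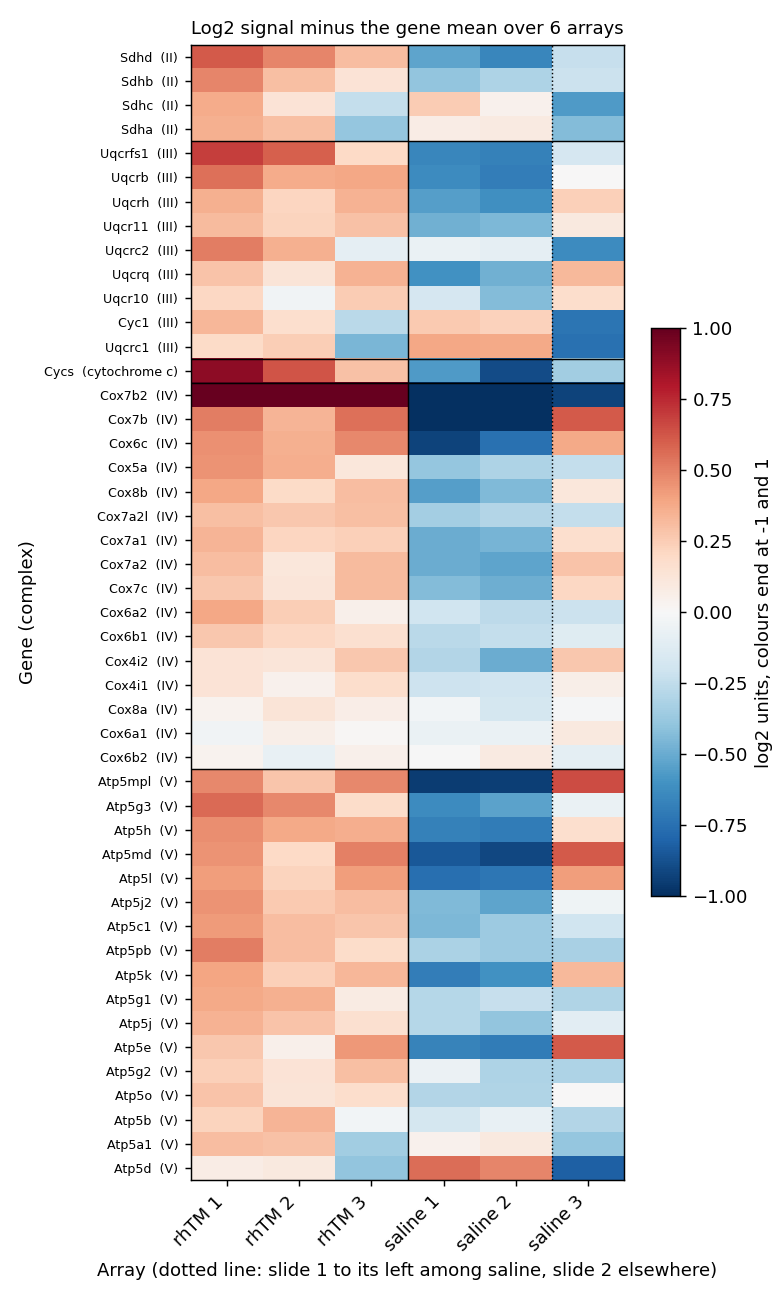
Log2 signal of the 47 tested genes on each array minus the gene's mean over 6 arrays, with rows grouped by complex and ordered by change within a complex. Red is above and blue below the gene's mean, colours end at -1 and 1, and saline 1 and 2 are on slide 1. Most rows are red on the rhTM arrays, saline 1 and 2 are blue in most rows, and saline 3 is red in rows such as Atp5mpl, Atp5md, Atp5e and Cox7b.

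The arrays of the groups did not overlap, with all rhTM values above all saline values, in 24 of 47 genes (51.1%), against 17% of all genes tested. Per array, the median of the 47 levels was 8.33, 8.13 and 8.04 in rhTM 1, 2 and 3, against 7.25, 7.14 and 7.86 in saline 1, 2 and 3. The rhTM medians all lay above the saline medians, and saline 3 lay nearest to them. No gene of the 47 was called without any one of rhTM 1, rhTM 2, saline 1 and saline 2. Of all genes 0%, 0.0136%, 0.0136% and 0.395% were called in these fits. So few calls over all genes leave nothing to read from the lack of calls among the 47. At unadjusted p under 0.05, in the same order, limma gave 9, 10, 13 and 12 of the 47 higher and 0 lower. Of all 14701 genes tested it gave 1271, 1210, 1341 and 1562 higher and 1314, 1260, 1452 and 1594 lower. Without saline 3 limma called 32 of the 47 higher and 0 lower, against 20.5% of all genes higher and 19.1% lower. Without saline 3 the saline and rhTM arrays lie on different slides, so that slide and group cannot be told apart. Without rhTM 3 Cox7b2 and Cycs were called and Sdhd was not (limma adjusted p = 0.0580), against 6.08% of all genes called. Without both saline 3 and rhTM 3, with the same limit, 35 genes were called higher and 1 lower, against 26.9% of all genes higher and 26.3% lower.

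Against saline 3, the saline heart on the same slide, 36 of the 47 genes (76.6%) lay higher with rhTM, against 49.8% of all genes tested, with a median difference of 0.37, against -0.0024 over all genes. By complex, the median difference from saline 3 was 0.59 for complex II, 0.43 for complex III, 0.95 for Cycs and 0.38 for complex V, and 0.09 for complex IV. The ranges over genes overlapped, with -0.07 to 0.88 in complex III, -0.15 to 3.52 in complex IV and -0.36 to 0.74 in complex V, and the difference between complexes was not tested. Over all arrays the medians were 0.39, 0.52, 1.21, 0.65 and 0.48 for complex II, complex III, Cycs, complex V and complex IV. In the fit with slide as a block, limma called 1 of the 47 genes, Cox7b2, against 5.78% of all genes, 3.83% higher and 1.95% lower. Cox7b2 apart, the largest differences from saline 3 were in Cycs, Uqcrc2 and Cyc1, and the lowest were in Atp5e, Atp5mpl and Atp5md.

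**Figure D2:**
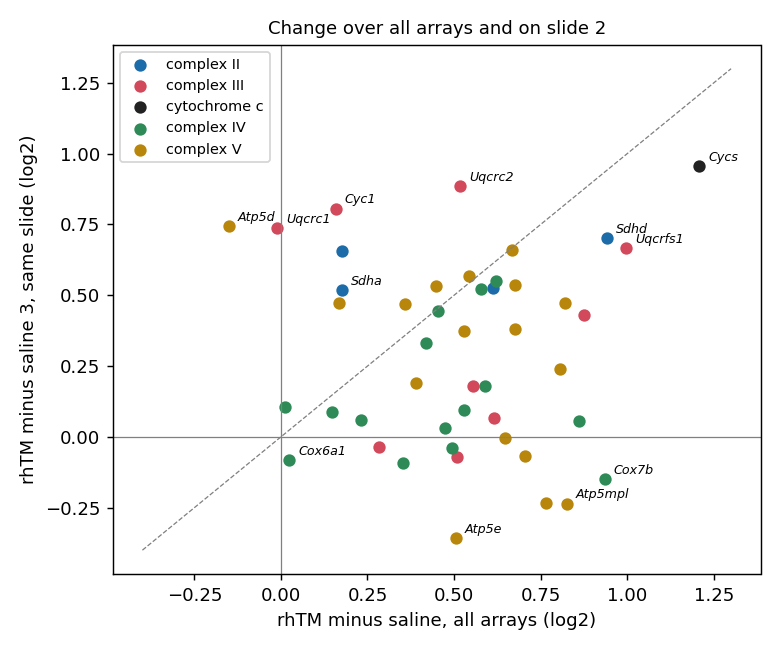
Change of 46 genes over all arrays (horizontal axis, rhTM minus saline, log2) against the difference of the rhTM mean from saline 3 on the same slide (vertical axis, log2), coloured by complex, with Cox7b2 (5.19 and 3.52) left out for scale. The dashed line marks equal values: Atp5d, Uqcrc1 and Cyc1 lie well above it, and Cox7b, Atp5mpl and Atp5e lie below it and below 0 on the vertical axis.

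Complex II, which oxidises succinate in the tricarboxylic acid cycle and passes the electrons to ubiquinone, had 4 genes, all with a higher mean in rhTM hearts. Sdhd, a membrane anchor that helps to bind ubiquinone (probe A_51_P260871), lay at 7.13, 6.998 and 6.82 in rhTM 1, 2 and 3, against 5.98, 5.86 and 6.28 in saline 1, 2 and 3. The groups did not overlap, and Sdhd rose 1.92-fold (0.94 ± 0.20, limma adjusted p = 0.0495). The difference from saline 3 was 0.70 and was not called (limma adjusted p = 0.0896, blocked by slide). Blocked by replicate number, the change was not called either (limma adjusted p = 0.0707).

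Sdhb, the iron-sulfur subunit, lay at 8.41, 8.23 and 8.06 in rhTM 1, 2 and 3, against 7.53, 7.62 and 7.71 in saline 1, 2 and 3. All rhTM values were above all saline values, and the change of 0.61 ± 0.18 missed the threshold (limma adjusted p = 0.0920). Its other probe differed by 0.40, with overlapping groups. The catalytic flavoprotein gene Sdha lay at 5.81, 5.76 and 5.07 in rhTM 1, 2 and 3, against 5.54, 5.55 and 5.03 in saline 1, 2 and 3. For Sdha the third mouse of each group was the lowest of its group and the groups overlapped (0.18 ± 0.28, limma adjusted p = 0.689). Its other probe differed by -0.27, so that the probes disagreed in direction. In the other membrane anchor, Sdhc, the third mouse of each group was likewise the lowest of its group, with 5.29, 5.06 and 4.69 in rhTM 1, 2 and 3, against 5.18, 4.97 and 4.36 in saline 1, 2 and 3 (0.18 ± 0.29, limma adjusted p = 0.697).

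Complex III passes electrons from ubiquinol to cytochrome c. Of its 9 genes 8 had a higher mean with rhTM, against 50.8% of all genes tested, and none was called, against 5.17%. At unadjusted p under 0.05 limma gave 3 of the 9 higher and 0 lower. Of all genes tested limma gave 2215 higher and 2296 lower, 30.7% in either direction. In 3 genes (33.3%) the groups did not overlap, all of them higher, against 17% of all genes. Uqcrfs1, the Rieske iron-sulfur protein, lay at 7.40, 7.31 and 6.91 in rhTM 1, 2 and 3, against 6.05, 6.03 and 6.54 in saline 1, 2 and 3. It had the largest change of the complex, 1.00 ± 0.24, did not overlap between groups and missed the threshold (limma adjusted p = 0.0611). Uqcrb, a small subunit near the ubiquinone site, lay at 8.20, 8.02 and 8.04 in rhTM 1, 2 and 3, against 7.02, 6.96 and 7.66 in saline 1, 2 and 3. It differed by 0.87 ± 0.24 (limma adjusted p = 0.0799), and its other probe by 1.24, with no overlap for either probe.

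In 3 other genes of complex III, Uqcrc1, Cyc1 and Uqcrc2, saline 3 was the lowest of all 6 hearts. Uqcrc1, a core subunit facing the matrix, lay at 6.76, 6.82 and 6.12 in rhTM 1, 2 and 3, against 6.95, 6.94 and 5.83 in saline 1, 2 and 3. Saline 1 and 2 were above every rhTM heart and saline 3 was below every one of them, so that the mean change was -0.01 ± 0.38, while the difference from saline 3 was 0.74. Cyc1, the gene of cytochrome c1, lay at 7.10, 6.94 and 6.50 in rhTM 1, 2 and 3, against 7.03, 6.997 and 6.04 in saline 1, 2 and 3. It differed by 0.16 ± 0.33 over all arrays and by 0.81 from saline 3. Uqcrc2, the other core subunit, differed by 0.52 ± 0.26 and by 0.88 from saline 3. None of the 3 was called in either fit (limma adjusted p 0.103 to 0.986).

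The other small subunits of complex III were Uqcrh, the hinge protein, Uqcrq, Uqcr10 and Uqcr11. They differed by 0.61, 0.51, 0.28 and 0.56 over all arrays and by 0.07, -0.07, -0.04 and 0.18 from saline 3. Uqcrq lay at 9.27, 9.11 and 9.32 in rhTM 1, 2 and 3, against 8.37, 8.49 and 9.31 in saline 1, 2 and 3. Saline 3 thus lay among the rhTM hearts, and saline 1 and 2 lay below them.

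Cycs, the single gene of somatic cytochrome c among the genes taken, lay at 6.65, 6.38 and 6.04 in rhTM 1, 2 and 3, against 5.19, 4.86 and 5.40 in saline 1, 2 and 3 (probe A_52_P82247). Every rhTM heart was above every saline heart. Cycs rose 2.31-fold (1.21 ± 0.24, limma adjusted p = 0.0457), the largest change after that of Cox7b2. The difference from saline 3 was 0.95 and was not called (limma adjusted p = 0.102, blocked by slide), nor was the change blocked by replicate number (limma adjusted p = 0.0634). A second Cycs probe carried an outlier flag and was left out.

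**Figure D3:**
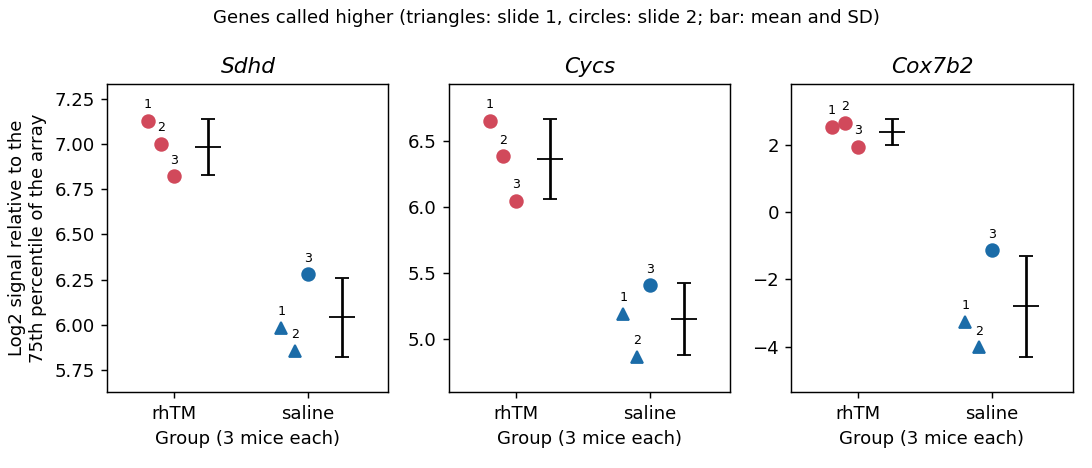
Log2 signal relative to the 75th percentile of the array for the 3 genes called higher, for each rhTM mouse and each saline mouse (numbered 1 to 3, triangles on slide 1 and circles on slide 2), with the mean and SD of each group. All rhTM points lie above all saline points in each panel, and saline 3 is the highest saline point in each.

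Complex IV, the terminal oxidase, holds subunits with tissue forms. All 16 tested genes had a higher mean with rhTM, against 50.8% of all genes tested. In 8 (50%) the groups did not overlap, all of them higher, against 17% of all genes. Cox7b2 was the 1 gene called (6.25%), against 2.75% of all genes called higher. Cox7b2, known as a testis form of subunit 7B, had a processed signal of 2681, 2947 and 1592 in rhTM 1, 2 and 3, against 76.5, 41.4 and 179 in saline 1, 2 and 3 (probe A_55_P2750463). On the log2 scale relative to the array these were 2.53, 2.66 and 1.95 in rhTM 1, 2 and 3, against -3.26, -4.02 and -1.14 in saline 1, 2 and 3. Every rhTM heart was above every saline heart and saline 3 was the highest saline heart. Cox7b2 rose 36.4-fold (5.19 ± 0.71, limma adjusted p = 0.0248).

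Cox7b2 rose also against saline 3 (3.52, limma adjusted p = 0.0262, blocked by slide) and blocked by replicate number (limma adjusted p = 0.0450). Its fold was 11.5 against saline 3, 16.6 with normexp background, 8.89 in the authors' deposited table, and 23.9 to 64.8 with 1 array left out, so the direction held and the size did not. It rests on 1 probe, and the call was lost without any one of saline 1, saline 2, rhTM 1 and rhTM 2 (limma adjusted p 0.0528 to 0.149). Of 4 testis germ cell markers, Odf1 was well above background on 0 of 6 arrays and Tnp1 on 1 of 6. Prm1 was well above background on 0 rhTM and 2 saline arrays, and Prm2 on 3 rhTM arrays and 1 saline array, with a difference of 1.66 that has no p here because it entered the fit only through the rhTM arrays. Their mean level was -5.00, -5.18 and -4.51 in rhTM 1, 2 and 3 and -5.41, -4.88 and -4.87 in saline 1, 2 and 3, and their part in the result was not tested.

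The somatic form, Cox7b, lay at 8.34, 8.17 and 8.38 in rhTM 1, 2 and 3, against 6.84, 6.81 and 8.45 in saline 1, 2 and 3. Saline 3 was the highest of all 6 hearts, so the change of 0.93 ± 0.45 was not called (limma adjusted p = 0.210) and the difference from saline 3 was -0.15. Cox6c, another small subunit, lay at 8.92, 8.82 and 8.94 in rhTM 1, 2 and 3, against 7.54, 7.72 and 8.84 in saline 1, 2 and 3 (0.86 ± 0.36, limma adjusted p = 0.159). Cox7c behaved in the same way in its brighter probe, which differed by 0.47. Its other probe lay at 6.90, 6.72 and 6.92 in rhTM 1, 2 and 3, against 3.53, 3.39 and 6.79 in saline 1, 2 and 3, a change of 2.27. The saline arrays of slide 1 thus lay far below saline 3 for that probe, and the size of the change of Cox7c depended on the probe.

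Cox5a, a matrix-facing subunit, lay at 9.02, 8.94 and 8.68 in rhTM 1, 2 and 3, against 8.18, 8.26 and 8.33 in saline 1, 2 and 3. It did not overlap between groups and held against saline 3 (0.62 ± 0.18 over all arrays, 0.55 from saline 3), but was not called (limma adjusted p = 0.0884). Cox7a2l lay at 6.85, 6.83 and 6.85 in rhTM 1, 2 and 3, against 6.22, 6.26 and 6.32 in saline 1, 2 and 3. The mice of each group lay close together, and its change of 0.58 ± 0.16 also missed the threshold (limma adjusted p = 0.0822). Cox6b1, a subunit on the intermembrane side, lay at 5.53, 5.47 and 5.42 in rhTM 1, 2 and 3, against 4.99, 5.02 and 5.14 in saline 1, 2 and 3. It differed by 0.42 ± 0.17 and by 0.33 from saline 3, with no overlap between the groups (limma adjusted p = 0.147).

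The tissue forms of complex IV subunits were compared in 6 pairs, as the change of one form minus the change of the other on the same arrays. The heart and muscle form Cox6a2 lay at 9.49, 9.34 and 9.15 in rhTM 1, 2 and 3, against 8.90, 8.84 and 8.88 in saline 1, 2 and 3. The ubiquitous form Cox6a1 lay at 7.71, 7.81 and 7.76 in rhTM 1, 2 and 3, against 7.68, 7.68 and 7.84 in saline 1, 2 and 3. Cox6a2 thus changed by 0.43 more than Cox6a1, with no overlap between groups (exact two-sided permutation test, p = 0.1, the smallest that 3 against 3 arrays allow, and 0.2 adjusted over 6 pairs), and by 0.53 more against saline 3.

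For subunit 8, the heart and muscle form Cox8b lay at 8.70, 8.51 and 8.62 in rhTM 1, 2 and 3, against 7.76, 7.87 and 8.43 in saline 1, 2 and 3. The ubiquitous form Cox8a lay at 7.29, 7.38 and 7.32 in rhTM 1, 2 and 3, against 7.225, 7.08 and 7.24 in saline 1, 2 and 3. The difference between their changes was 0.44 (exact permutation p = 0.2, adjusted 0.3) over all arrays and 0.09 against saline 3. For subunit 7A, the heart and muscle form Cox7a1 lay at 9.18, 9.05 and 9.07 in rhTM 1, 2 and 3, against 8.34, 8.38 and 9.01 in saline 1, 2 and 3. The ubiquitous form Cox7a2 lay at 7.89, 7.69 and 7.89 in rhTM 1, 2 and 3, against 7.08, 7.05 and 7.86 in saline 1, 2 and 3. Both had saline 3 near the rhTM hearts, and their changes of 0.53 ± 0.23 and 0.49 ± 0.27 differed by 0.03 (exact permutation p = 0.6, adjusted 0.6). That contrast lay between 1.19 and 1.36 in rhTM hearts and between 1.15 and 1.33 in saline hearts, ranges that overlap.

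The hypoxia-responsive form Cox4i2 lay at 0.10, 0.08 and 0.23 in rhTM 1, 2 and 3, against -0.34, -0.54 and 0.23 in saline 1, 2 and 3. The main form Cox4i1 lay at 8.64, 8.54 and 8.68 in rhTM 1, 2 and 3, against 8.30, 8.31 and 8.56 in saline 1, 2 and 3. It differed by 0.23 ± 0.18, and the difference between the changes of Cox4i2 and Cox4i1 was 0.12 (exact permutation p = 0.6, adjusted 0.6), which became -0.15 against saline 3. The testis form Cox6b2 lay at -0.92, -1.03 and -0.90 in rhTM 1, 2 and 3, against -0.96, -0.87 and -1.06 in saline 1, 2 and 3, a change of 0.01 ± 0.17. Against the somatic form Cox6b1 its change was -0.41 (exact permutation p = 0.1, adjusted 0.2) over all arrays and -0.22 against saline 3. Cox7b2 changed by 4.25 more than Cox7b (exact permutation p = 0.1, adjusted 0.2). Among the testis forms, Cox7b2 rose, Cox6b2 changed by 0.01, and the probe of Cox8c was not well above background.

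**Figure D4:**
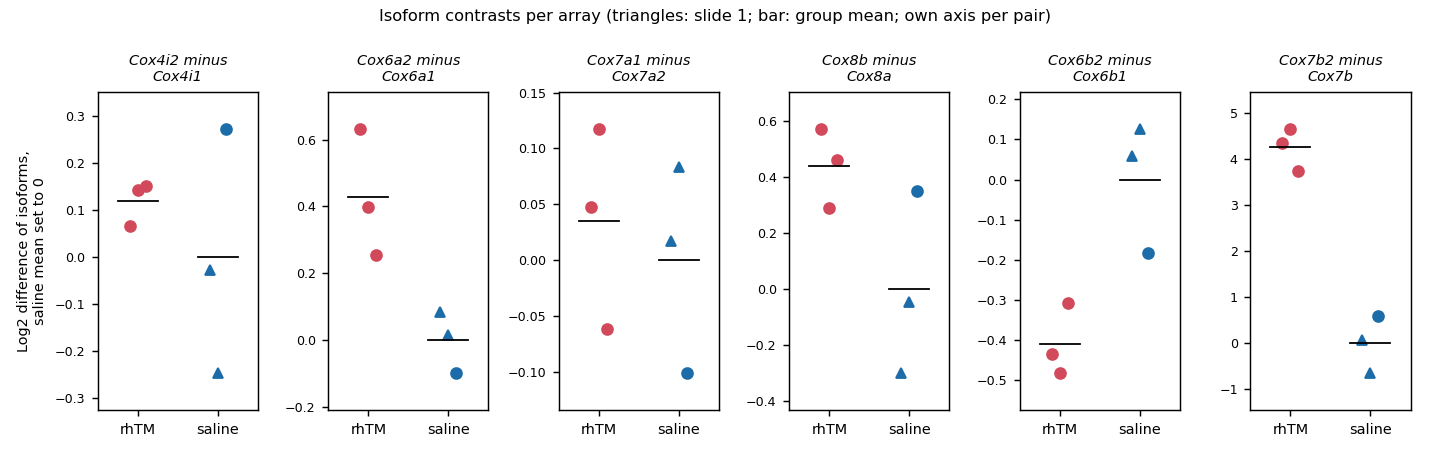
Log2 signal of one tissue form minus that of the other on each array, with the saline mean of each pair set to 0, for rhTM and saline mice (triangles on slide 1, circles on slide 2, bars at group means, an axis of its own per pair). The groups are apart for Cox6a2 minus Cox6a1, Cox6b2 minus Cox6b1 and Cox7b2 minus Cox7b, and overlap for the other pairs.

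Complex V makes ATP with a catalytic head, a central stalk, a ring of c subunits and a side stalk. Of its 17 genes 16 had a higher mean with rhTM, against 50.8% of all genes tested, and none was called, against 5.17%. In 10 (58.8%) the groups did not overlap, all of them higher, against 17% of all genes. At unadjusted p under 0.05 limma gave 8 of the 17 higher and 0 lower. Of all genes tested it gave 2215 higher and 2296 lower, 30.7% in either direction. In the head, the beta subunit gene Atp5b lay at 8.79, 8.90 and 8.54 in rhTM 1, 2 and 3, against 8.39, 8.49 and 8.27 in saline 1, 2 and 3. All rhTM values were above all saline values (0.36 ± 0.19, limma adjusted p = 0.236), but its other probes differed by 0.01 and -0.08. The alpha subunit gene Atp5a1 lay at 8.575, 8.55 and 7.91 in rhTM 1, 2 and 3, against 8.31, 8.36 and 7.88 in saline 1, 2 and 3. The third mouse of each group was the lowest of its group and the groups overlapped (0.17 ± 0.26, limma adjusted p = 0.686), with -0.01 in its other probe.

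In the central stalk the gamma, delta and epsilon subunits differed from each other. Atp5c1, the gamma subunit, lay at 8.59, 8.47 and 8.44 in rhTM 1, 2 and 3, against 7.71, 7.80 and 7.96 in saline 1, 2 and 3. It had the lowest adjusted p of the complex (0.67 ± 0.17, limma adjusted p = 0.0712) and differed by 0.54 from saline 3. Atp5d, the delta subunit, lay at 5.99, 6.01 and 5.52 in rhTM 1, 2 and 3, against 6.47, 6.40 and 5.10 in saline 1, 2 and 3. Saline 1 and 2 were above and saline 3 was below all rhTM hearts, so that its change was -0.15 ± 0.40 over all arrays and 0.74 from saline 3. Atp5e, the epsilon subunit, lay at 8.81, 8.59 and 8.97 in rhTM 1, 2 and 3, against 7.87, 7.84 and 9.15 in saline 1, 2 and 3. Here saline 3 was above every other heart, and the change was 0.51 ± 0.38 over all arrays and -0.36 from saline 3.

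The c ring is encoded by 3 genes that give the same mature protein. Atp5g1 lay at 9.02, 8.9955 and 8.72 in rhTM 1, 2 and 3, against 8.36, 8.41 and 8.34 in saline 1, 2 and 3. Its change was 0.54 ± 0.18, but its other probe differed by 0.18 with overlapping groups. Atp5g2 and Atp5g3 differed by 0.45 ± 0.18 and 0.82 ± 0.23. None of the 3 overlapped between groups in these probes, and none was called (limma adjusted p 0.0820 to 0.148). They differed from saline 3 by 0.47 to 0.57 and were not called in that fit either (limma adjusted p 0.126 to 0.200, blocked by slide).

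Of the side stalk, Atp5pb, subunit b, lay at 7.52, 7.32 and 7.19 in rhTM 1, 2 and 3, against 6.70, 6.65 and 6.69 in saline 1, 2 and 3. Saline hearts were alike on both slides, and the change was 0.67 ± 0.18 over all arrays (limma adjusted p = 0.0753) and 0.66 from saline 3 (limma adjusted p = 0.0997, blocked by slide). Its other probe differed by 0.62. Atp5h, subunit d, lay at 9.30, 9.22 and 9.21 in rhTM 1, 2 and 3, against 8.17, 8.14 and 9.0045 in saline 1, 2 and 3. It differed by 0.80 ± 0.27 (limma adjusted p = 0.115) and its other probes by 0.61 and 0.67, with no overlap in any of these probes, but by 0.24 from saline 3. Atp5j, coupling factor 6, and Atp5o, the oligomycin sensitivity protein, differed by 0.53 and 0.39 over all arrays and by 0.37 and 0.19 from saline 3.

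In several small membrane subunits of complex V saline 3 lay at or above the rhTM hearts. Atp5mpl, a membrane proteolipid, lay at 8.33, 8.13 and 8.34 in rhTM 1, 2 and 3, against 6.91, 6.91 and 8.50 in saline 1, 2 and 3. Its change of 0.83 ± 0.45 was the largest of the complex, but saline 3 lay above every rhTM heart. Atp5md, which helps to stabilise dimers of the enzyme, differed by 0.76 over all arrays and by -0.23 from saline 3, and its second probe ran alike on each array. Atp5l, Atp5k and Atp5j2, subunits g, e and f, differed by 0.71, 0.65 and 0.68 over all arrays and by -0.07, -0.00 and 0.38 from saline 3. RefSeq lists pseudogenes of Atp5k, Atp5l, Atp5c1, Atp5pb, Uqcrh and Cox7c, and hybridisation of such copies to these probes was not tested.

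Within the groups the third mouse departed from the other mice in opposite directions for different genes. Saline 3 minus the mean of saline 1 and 2 was -1.34 for Atp5d, -1.12 for Uqcrc1 and -0.97 for Cyc1, and 1.59 for Atp5mpl, 1.63 for Cox7b and 2.50 for Cox7b2. It was above 0 in 36 genes and below 0 in 11, with a median of 0.36. The same difference in rhTM hearts, all on slide 2, had a median of -0.05 and was above 0 in 19 genes and below 0 in 28. Across the 47 genes, which share arrays, the rank correlation of these differences was 0.63. The range from lowest to highest mouse had a median of 0.21 in rhTM hearts and 0.57 in saline hearts, and was wider in saline hearts in 37 of 47 genes. Slide and mouse cannot be told apart for saline 1 and 2.

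**Figure D5:**
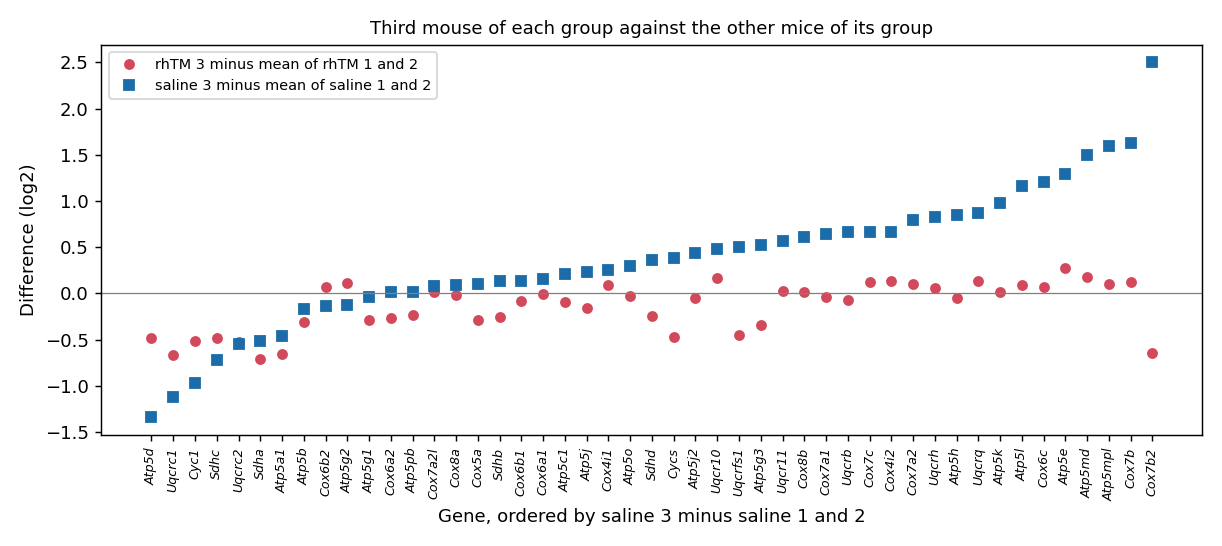
For each of 47 genes, rhTM 3 minus the mean of rhTM 1 and 2 (red circles) and saline 3 minus the mean of saline 1 and 2 (blue squares), in log2 units, ordered by the saline difference. The saline differences run between -1.34 for Atp5d and 2.50 for Cox7b2, and the rhTM differences of the genes at the left end are also below 0.

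In all, saline 3 lay below every rhTM heart in 32 of the 47 genes, among the rhTM hearts in 8 and above every one in 7. Saline 1 and 2 both lay below every rhTM heart in 39 genes. Of the 12 genes with several kept probes, 14 other probes could be compared. Of these 11 differed in the same direction as most of the genes, higher with rhTM, and 3 lay lower, with a median of 0.50, against 0.51 for the brightest probes of the same 12 genes.

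The assembly factors, which build complexes II to V and are not part of them, had mostly higher means. Of 35 tested, 29 had a higher mean with rhTM, 2 (5.71%) were called higher and 0 lower, against 2.75% of all genes higher and 2.41% lower, and the median was 0.45 over all arrays and 0.39 against saline 3. The genes called were Sdhaf4, an assembly factor of complex II (1.36 ± 0.22, limma adjusted p = 0.0330), and Cox20, a chaperone of complex IV (1.20 ± 0.24, limma adjusted p = 0.0447). Atpaf1, a chaperone of the complex V head, differed by 0.75 ± 0.20 (adjusted p = 0.0775). Blocked by replicate number, neither Sdhaf4 nor Cox20 was called (limma adjusted p = 0.0517 and 0.0695). They differed from saline 3 by 1.27 and 0.87, and neither was called with slide as a block. With 1 array left out their limma adjusted p reached 0.190 and 0.213. Cmc2, another assembly factor, differed from saline 3 by 1.42 and was called with slide as a block (limma adjusted p = 0.0497). In that fit 3.83% of all genes were called higher. Over all arrays Cmc2 was not called (0.78 ± 0.33, limma adjusted p = 0.170).

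A further list held the ADP/ATP and phosphate carriers Slc25a3, Slc25a4 and Slc25a5, the outer membrane channels Vdac1, Vdac2 and Vdac3, the mitochondrial creatine kinase Ckmt2 and the ATP synthase inhibitor Atpif1. All 8 genes had a higher mean with rhTM, against 50.8% of all genes tested, and none was called, against 5.17%. The median of the 8 was 0.38 over all arrays and 0.61 against saline 3. Slc25a4, the ADP/ATP carrier of heart and muscle, lay at 9.87, 9.87 and 9.66 in rhTM 1, 2 and 3, against 9.08, 9.19 and 9.11 in saline 1, 2 and 3. It did not overlap between groups and differed by 0.67 ± 0.17 (limma adjusted p = 0.0694). No probe named by the rule came from the mitochondrial genome, which encodes further subunits of complexes III, IV and V, and it was not analysed here.

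Most cardiomyocyte markers also had higher means with rhTM. Of 8, 7 had a higher mean and Ryr2 a lower one, against 50.8% of all genes tested with a higher mean. Pln, the regulator of the calcium pump, was the 1 marker called (1.35 ± 0.28, limma adjusted p = 0.0478). This is 12.5% of the 8, against 2.75% of all genes called higher. Pln was also called with slide as a block (1.85 from saline 3, limma adjusted p = 0.0286) and blocked by replicate number (limma adjusted p = 0.0429). With 1 array left out its limma adjusted p reached 0.216. The median change of the 8 markers was 0.68 over all arrays and 0.77 against saline 3. Their mean level was 8.23, 8.18 and 7.59 in rhTM 1, 2 and 3, against 7.54, 7.67 and 6.80 in saline 1, 2 and 3. Saline 3 was thus the lowest heart for these markers. The mean level of the 47 genes was 6.73, 6.69 and 7.08 in saline 1, 2 and 3. Saline 3 lay above the mean of saline 1 and 2 in 36 of the 47 genes and below it in 11. In whole hearts, more cardiomyocyte RNA and more RNA of these genes per cell cannot be told apart. Of 4 atrial markers, Sln was not above background in any heart, and the others had a median of 0.85 over all arrays and 1.39 against saline 3, none of them called. Nppa, the atrial natriuretic peptide, lay at 7.68, 8.54 and 7.77 in rhTM 1, 2 and 3, against 7.45, 7.39 and 6.61 in saline 1, 2 and 3, and Myl7 and Myl4 differed by 1.31 and -0.32. Of the other markers, the fibroblast list had a median of 0.0029, the endothelial list -0.20, the macrophage list 0.28 and the erythroid list -0.60 over all arrays. Against saline 3 these medians were -0.077, 0.21, 0.64 and -0.64. The fibroblast and endothelial lists each held 2 markers with a higher and 2 with a lower mean. Among them Pdgfra differed by -1.10 and Lum by 1.22, and Pecam1 by -1.08 and Kdr by 0.57, none of them called. Of 4 skeletal muscle markers, Tnnt3 was well above background on every array and differed by -0.07 (limma adjusted p = 0.885), and Myh1 and Actn3 were not above background in any heart. Myh4, a fast myosin, was well above background on 3 rhTM and 0 saline arrays and at least 2.89-fold higher, taking each saline level as the lowest signal well above background on its array or the probe's own where higher. It entered the fit only through the rhTM arrays, so no p is given. The neutrophil list had a median of -3.52, and Ucp1, the defining marker of brown fat, and Elovl3 were not above background in any heart. Cidea, the third brown fat marker, was well above background on every array and differed by -0.29 (limma adjusted p = 0.515). The part of these cell types in the results was not tested.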

How the data were processed

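Scanner text files gave an intensity for each spot, which the authors deposited as Agilent Feature Extraction 10.7.3.1 wrote it, per the file headers (grid build mm9). The version in the submitters' processing notes is 9.1. The 75th percentile of the processed signal lay between 394 and 732, so the arrays were not on a common scale. The log2 values of the authors' deposited table, of unstated scale, centring and baseline, served only as an alternative.

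Log2 of the processed signal minus the 75th percentile of the array gave the level, averaged over the spots of a probe. Of 56605 probes, 368 with an outlier flag were dropped, 1 of them a Cycs probe, leaving 62 of the 63 probes of the 48 genes. Of those kept, 32789 were named by accession through RefSeq (GRCm38.p6) and 23448 were not. Each gene took its brightest probe and entered the test if all 3 arrays of either group had that probe well above background. Titles gave the groups, each array being a separate mouse, and limma 3.58.1 (R 4.3.3) compared them over 14701 genes with Benjamini-Hochberg adjustment. The fit was tested on simulated data. The number of arrays limits the precision.

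Alternatives were normexp background, quantile normalisation, median centring, other probe filters, the mean of probes, slide or replicate number as a block, and arrays left out. Mice 1 to 3 of both groups share numbers. Same-numbered arrays deviated together (r of 0.319, 0.235 and 0.372 across genes), but rhTM 2 and saline 1 gave 0.314. Numbers 1 and 2 are thus not told apart by these values. Mouse 3 of each group gave -0.387 to -0.221 with mice 1 and 2 of the other group. Deviations of 3 mice from their group mean cancel out, so these negative values go with the 0.372 and are no separate observation. No label states a shared litter or day, so the pairing is taken from these same data. The fit blocked by replicate number is an alternative and not independent evidence.

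The genes, lists, pairs and motifs were chosen with earlier results of these data known, and the NRF-1 and YY1 motifs were shortened after their counts were seen. Values per array are given for called genes, the largest rise, largest fall and brightest gene of each complex, complex II, isoform pairs and core genes, and for up to 3 genes of each list by p. Those of Uqcrb, Uqcrq, Cox6c, Cox7c, Cox7a2l, Atp5c1, Atp5e, Atp5g1 and Atp5pb were chosen after their values were seen.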

Additional observations from a re-analysis of the deposited data

How the results depend on the processing

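Of 752 values of 47 single genes under 16 alternatives, 609 kept direction and side of the threshold, 78 newly passed, 22 no longer passed and 43 changed sign. The cause was not tested. With normexp (median signal, chosen after seeing the data, since the planned mean signal was not used here) 194 genes were called higher and 203 lower, Cox4i2 minus Cox4i1 was -0.0100, Cox6b2 -0.017 and Uqcrc1 0.0019. Quantile normalisation called 1 of the 47 genes, with medians of 0.18 in complex III, 0.28 in complex V and 0.27 in all, Cox7a1 minus Cox7a2 at -0.17, Atp5a1 at -0.20, Atp5b -0.029, Atp5o -0.011, Cox4i1 -0.15, Cox6a1 -0.25, Cox6b2 -0.067, Cox8a -0.044, Cyc1 -0.035 and Uqcr10 -0.079. Median centring gave 0.070 for Uqcrc1 and moved the share of calls that were higher to 64.3%, against 53.3%. Without a filter 132 genes were called higher and 19 lower, 1 of them of the complexes. The mean of probes gave -0.046 for Sdha. With slide as a block 1 gene of the 47 was called, the medians of complex IV and V were 0.093 and 0.38, and Cox4i2 minus Cox4i1 was -0.15. Single genes were then 0.74 for Atp5d and for Uqcrc1, -0.36 for Atp5e, -0.0032 for Atp5k, -0.068 for Atp5l, -0.23 for Atp5md, -0.24 for Atp5mpl, -0.092 for Cox4i2, -0.082 for Cox6a1, -0.039 for Cox7a2, -0.15 for Cox7b, -0.036 for Uqcr10 and -0.072 for Uqcrq. The replicate block left 1 of the 47 called and, Sdhd and Cycs apart, changed no other call among them. The deposited table called 2205 genes higher, 20 of them of the complexes, and 2314 lower, with medians of 0.71, 0.64 and 0.45 in complexes II, III and V, Cox4i2 minus Cox4i1 at -0.20, Atp5d at 0.64, Cox6a1 -0.14 and Uqcrc1 0.65. Without saline 3 and rhTM 3 (added after seeing the data) 3949 genes were called higher and 3873 lower, 35 and 1 (Atp5d, -0.44) of the complexes, with a median of 0.74 in complex III and in all and Cox6b2 at -0.060. With 1 array left out at a time, 0 to 3007 genes were called higher and 0 to 2808 lower, 0 to 32 of the 47 higher, and the median of complex III was 0.45 to 0.74. Atp5d then ranged between -0.60 and 0.092, Uqcrc1 between -0.39 and 0.21, Cyc1 between -0.16 and 0.33, Sdhc between -0.064 and 0.35, Cox6b2 between -0.036 and 0.059, Cox6a1 between -0.0028 and 0.077, Cox4i2 minus Cox4i1 between -0.0028 and 0.26, and Cox7a1 minus Cox7a2 between -0.016 and 0.083.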
